A study of Mus musculus with 188 samples.

Results

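Haptoglobin (Hp) without hemoglobin was applied to brain slice cultures (BSC), and the mRNA of slices from the second culture round was compared with that of untreated slices of the same round. The libraries are those whose names carry the round letter E2 and whose labels give Hp at 400 μM for 24 h or 48 h, or control medium for the same times. They are 17 of the 188 libraries of the series, with 6 Hp libraries at each time, 3 controls at 24 h and 2 controls at 48 h. Slices were cut from brains of male and female C57BL/6J mice, kept for a week in culture and then given either clinical grade Hp purified from human plasma or medium alone. No genetic change or other agent was part of any of these groups, and the Hp preparation is a foreign protein for mouse tissue. Another culture round, named E1 in the library names, held 11 Hp and 14 control libraries of the same times and dose and is used here only to set the effect of the second round against it. Nothing in the labels says which libraries came from separate animals, so the p-values measure the spread between these samples, which may be technical.

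Hp is a plasma protein that binds free hemoglobin, and the complex is taken up by the macrophage receptor CD163. Hemoglobin taken up in this way is broken down in the cell, and its heme is opened by heme oxygenase (Hmox1) to biliverdin, iron and carbon monoxide. Biliverdin reductases carry the product on to bilirubin, ferritin stores the iron and ferroportin (Slc40a1) exports it. Genes of this route and of glutathione and thioredoxin metabolism are induced by the transcription factor NRF2, which is the best known arm of the cellular response to heme. With Hp alone no hemoglobin was added, so this comparison gives the background of the Hp preparation against which Hb–Hp complexes would be read.

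Total counts ran from 24970704 to 38839614 in the 12 Hp libraries, from 44895961 to 51447782 in 3 controls of batch 2 and from 26537187 to 27567373 in 2 controls of batch 3. All 12 Hp libraries were of batch 3, and only 2 of the 5 controls (ctrl 24 h M2 and ctrl 48 h M1) were, so treatment and batch are separated by these 2 libraries alone. For all 17 libraries the Y-linked genes fitted the F or M of the name. Pairs of libraries within a group all differed by more than sampling noise, with a chi-square per degree of freedom from 7.09 to 63.2 over 34 pairs. The library Hp 48 h M3 stood apart from the other Hp 48 h libraries in neuronal genes: the summed level of 19 neuron markers was 909.8 CPM there and 524 to 757.4 CPM in the other 5. CPM are counts relative to the library size after TMM scaling, a scaling by trimmed means of log ratios between libraries. The cell types of brain tissue were present in every library, with summed marker levels of 7743 to 10440 CPM for 12 astrocyte genes, 28750 to 41710 CPM for 13 oligodendrocyte and myelin genes and 771.6 to 2699 CPM for 12 genes of homeostatic microglia.

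With time as a term in the model, 78 of 15971 genes passed an adjusted p of 0.05 between Hp and control (0.488% of those tested). Of these, 7 were higher with Hp (0.0438%) and 71 were lower (0.445%). The higher genes, from the largest log2 fold change to the smallest, were Hes5, Calr3, Slc40a1, Hmox1, Prdx1, Cd36 and Blvrb. Their log2 fold changes lay between 0.36 and 1.08. The lower genes included the peptide precursors Trh, Pnoc and Vgf and the neuronal tubulin Tubb3, with 1 of 19 neuron markers and 2 of 21 neuropeptides called, and their median log2 fold change was -0.62, beside a median of 0.00 over all genes tested. The calls were close to the threshold, with adjusted p from 0.0313 to 0.0494 in edgeR's quasi-likelihood test.

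Slc40a1 (ENSMUSG00000025993), the ferroportin gene and the only known cellular iron exporter, had the smallest adjusted p of the higher genes. At 24 h the controls had 19.3, 25.6 and 20.2 CPM and the 6 Hp libraries 29.3 to 39.8 CPM with a median of 33.4. At 48 h the controls had 33.2 and 27.6 CPM and the Hp libraries 37.6 to 52.2 CPM with a median of 41.5. Within each time every Hp library was above every control, while the 24 h Hp libraries overlapped with the 48 h controls. The log2 fold change was 0.57 (standard error 0.10, adjusted p = 0.0313 from edgeR), 0.65 at 24 h and 0.48 at 48 h. With batch as an added term it was 0.69 (adjusted p = 0.0295). That estimate rests on the 2 controls of batch 3, which had 20.2 CPM at 24 h and 27.6 CPM at 48 h.

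Hmox1 (ENSMUSG00000005413), the inducible heme oxygenase, stood at 1515, 1999 and 2488 CPM in the 24 h controls and at 2618 to 3468 CPM (median 3256) in the 24 h Hp libraries. At 48 h the controls had 2907 and 3158 CPM and the Hp libraries 3410 to 4086 CPM (median 3844). The groups did not overlap at either time, yet the highest control at each time was the one of batch 3. On the log2 scale the change was 0.51 (standard error 0.10, adjusted p = 0.0421), and it was 0.30 (adjusted p = 0.211) with batch as a term. Blvrb (ENSMUSG00000040466), biliverdin reductase B, showed the same order of groups, with 23.4, 28.6 and 33.5 CPM in the 24 h controls against 32.8 to 39.7 CPM with Hp, and 35.4 and 39.5 CPM against 41.5 to 50.0 CPM at 48 h. Its log2 fold change was 0.36 (adjusted p = 0.0421), and 0.19 (adjusted p = 0.247) with batch as a term.

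Prdx1 (ENSMUSG00000028691), a peroxiredoxin that reduces hydrogen peroxide, was the only one of the 7 higher genes whose 12 Hp libraries all lay above all 5 controls. Over all genes tested, 0.0689% had all Hp libraries above all controls and 0.169% had all of them below. The controls had 641, 796 and 673 CPM at 24 h and 618 and 772 CPM at 48 h. The Hp libraries had 821 to 1076 CPM (median 868) at 24 h and 878 to 1070 CPM (median 951) at 48 h. The log2 fold change was 0.41 (standard error 0.08, adjusted p = 0.0364), and 0.37 (adjusted p = 0.0911) with batch as a term.

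Cd36 (ENSMUSG00000002944), a scavenger receptor of macrophages for oxidized lipids, differed more between times than between treatments. The 24 h controls had 340, 401 and 505 CPM and the 24 h Hp libraries 479 to 662 CPM (median 587), so these groups overlapped. The 48 h controls had 757 and 823 CPM and the Hp libraries 903 to 1008 CPM (median 1006). Its log2 fold change was 0.39 (adjusted p = 0.0481), and 0.21 (adjusted p = 0.289) with batch as a term.

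Hes5 (ENSMUSG00000048001), a target of Notch signalling in glia and neural progenitors, had the largest log2 fold change of the 7, 1.08 (standard error 0.23, adjusted p = 0.0454), at a low level. It was at 1.04, 1.10 and 1.36 CPM in the 24 h controls, at 0.56 and 0.74 CPM in the 48 h controls, at 1.18 to 3.57 CPM with Hp at 24 h and at 1.03 to 1.94 CPM with Hp at 48 h. With batch as a term the change of Hes5 was 0.88 (adjusted p = 0.172). Calr3 (ENSMUSG00000019732), a calreticulin-like chaperone known from testis, was at 1.69 to 2.49 CPM over the 5 controls and at 2.45 to 4.13 CPM over the 12 Hp libraries. The log2 fold change of Calr3 was 0.67 (adjusted p = 0.0421), and 0.90 (adjusted p = 0.0337) with batch as a term. The annotated gene Gm3835 lies over Calr3 on the same strand in the GENCODE annotation of GRCm38, and reads of both cannot be told apart here. Next in order of unadjusted p came Clec4n, Zfp456 and Eif2ak2, with log2 fold changes of 0.83, 0.63 and 0.24, which did not pass.

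**Figure D1:**
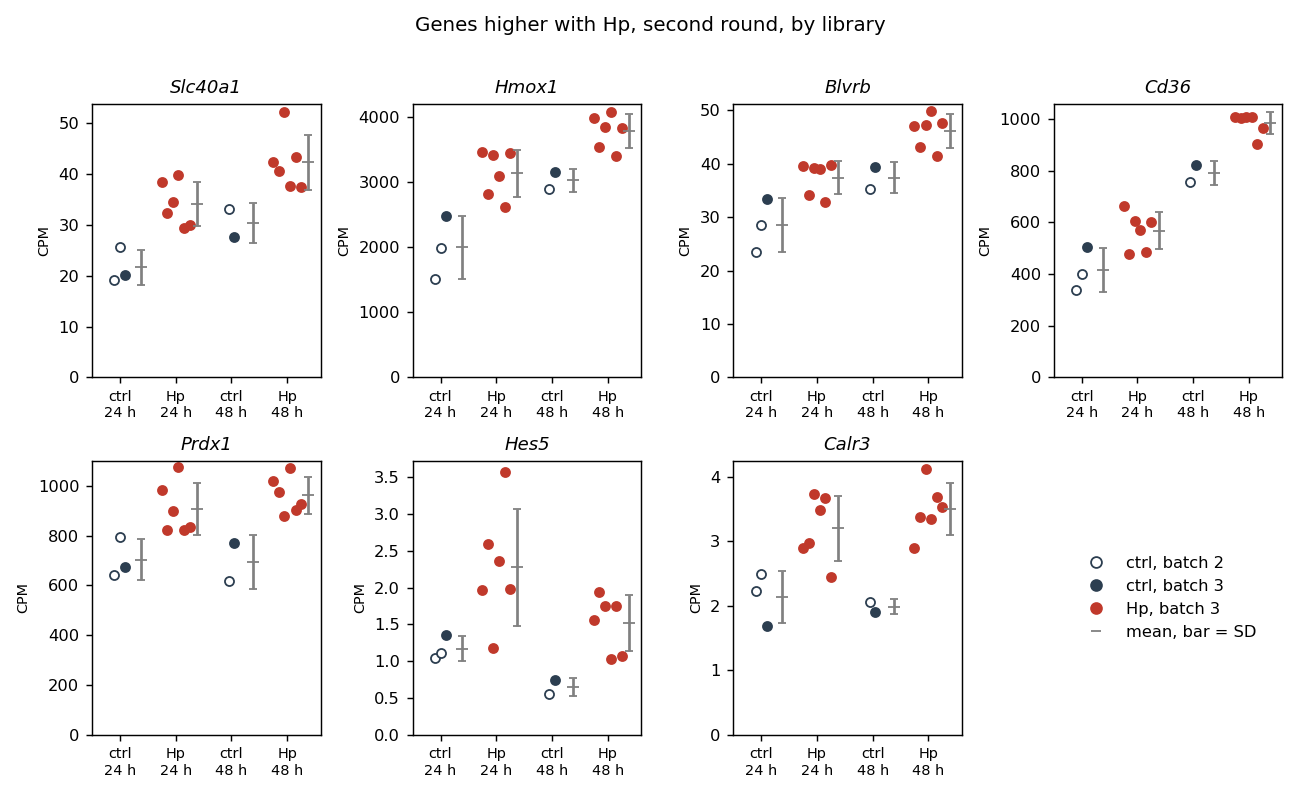
Level in CPM (linear axis from 0) of the 7 genes called higher with Hp in each of the 17 libraries, with open points for controls of batch 2, filled dark points for controls of batch 3 and red points for Hp, and the mean and SD of each group in grey. Prdx1 shows no overlap between Hp and control, and for Hmox1, Blvrb and Cd36 the batch 3 control is the highest control at both times.

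Among the 71 lower genes were precursors of neuropeptides. Trh (ENSMUSG00000005892), the precursor of thyrotropin-releasing hormone, was at 1.19, 2.72 and 2.54 CPM in the 24 h controls and at 0.20 to 1.34 CPM (median 0.41) in the 24 h Hp libraries. At 48 h it was at 6.06 and 6.76 CPM in the controls and at 1.57 to 3.21 CPM (median 1.94) with Hp. At 48 h no Hp library reached a control, and at 24 h one of the 6 did. The log2 fold change was -1.82 (standard error 0.30, adjusted p = 0.0313), and -1.94 (adjusted p = 0.0337) with batch as a term. Pnoc (ENSMUSG00000045731), the precursor of the opioid-like peptide nociceptin, had 0.87, 1.10 and 2.02 CPM in the 24 h controls and 0.11 to 0.73 CPM with Hp. At 48 h Pnoc had 4.39 and 2.76 CPM in the controls and 0.70 to 1.43 CPM with Hp. Its log2 fold change was -1.64 (adjusted p = 0.0327), and -1.82 (adjusted p = 0.0417) with batch as a term.

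Cckbr, a receptor of the peptide cholecystokinin, was at 2.78 to 4.90 CPM over the controls and at 0.13 to 2.496 CPM over the Hp libraries, which did not overlap. Ret, the receptor tyrosine kinase for factors of the GDNF family, was at 10.2, 25.3 and 24.2 CPM in the 24 h controls against 5.6 to 12.9 CPM with Hp. It was at 77.1 and 50.3 CPM in the 48 h controls against 7.18 to 33.98 CPM. Vgf, a granin-like peptide precursor of neuroendocrine cells, was at 35.8, 31.7 and 52.6 CPM in the 24 h controls against 16.96 to 27.45 CPM, and at 100.7 and 48.7 CPM in the 48 h controls against 15.4 to 37.3 CPM. In each gene the 48 h controls were above all Hp libraries of that time. The log2 fold changes were -1.50 for Cckbr (adjusted p = 0.0466), -1.44 for Ret (adjusted p = 0.0421) and -1.15 for Vgf (adjusted p = 0.0313). With each of the 17 libraries left out in turn, Cckbr passed in 5 fits, Ret in 6 and Vgf in 11. Of all 71 lower genes, 21 passed with batch as a term, where 1.62% of all genes tested did.

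Rims4, of the active zone family RIM, and Iqsec3, an exchange factor of inhibitory synapses, had log2 fold changes of -1.16 and -1.26 (both with adjusted p = 0.0313). Clstn3 and Syt13, a synaptic adhesion protein and a synaptotagmin, had -1.18 and -1.20. Rasgrf2, a calcium-dependent exchange factor for Ras, had -1.21, and Disp2, Celf6 and Dgkk had -1.15, -1.29 and -1.24. Asphd1 and Fndc9, of less known function, had -1.38 and -1.81. Fndc9 and Asphd1 overlap other annotated genes on the opposite strand (Fndc9 lies over Cyfip2), and whether the counting used strand is not given in the sources used here.

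Tubb3, the neuronal β-tubulin, was at 341, 386 and 438 CPM in the 24 h controls, at 370 and 397 CPM in the 48 h controls, at 257 to 303 CPM with Hp at 24 h and at 191 to 326 CPM with Hp at 48 h, without overlap. Its log2 fold change was -0.52 (standard error 0.11, adjusted p = 0.0421), -0.52 at each time, and -0.63 (adjusted p = 0.0468) with batch as a term. The neuronal growth suppressor Ndn and the zinc finger gene Peg3, both imprinted, and Hap1, the huntingtin-associated protein, are all strongly expressed in hypothalamus and had log2 fold changes of -0.58, -0.83 and -0.89. Syn1 (synapsin I), Nptxr, Map1b and Ina had -0.76, -0.54, -0.50 and -1.11. Other annotated genes lie on the same strand over Tubb3 (Gm20388), Hap1 (Gm20394), Nptxr (Npcd) and Map1b (5330431K02Rik). Reads of these and of the named genes cannot be told apart here. Genes that are not particular to neurons were also called lower: Mtor, a growth kinase, -0.18, the ribosomal protein gene Rps29 -0.21, the transcription factor Cebpb -0.59 and the iron chaperone Pcbp1 -0.15. The change of Cebpb was -0.20 (adjusted p = 0.428) with batch as a term. In all, 14 of the 71 lower genes had no Hp library at or above a control, beside 0.169% of all genes tested. The 71 genes were chosen by their values in these same libraries, so this count is a description only.

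**Figure D2:**
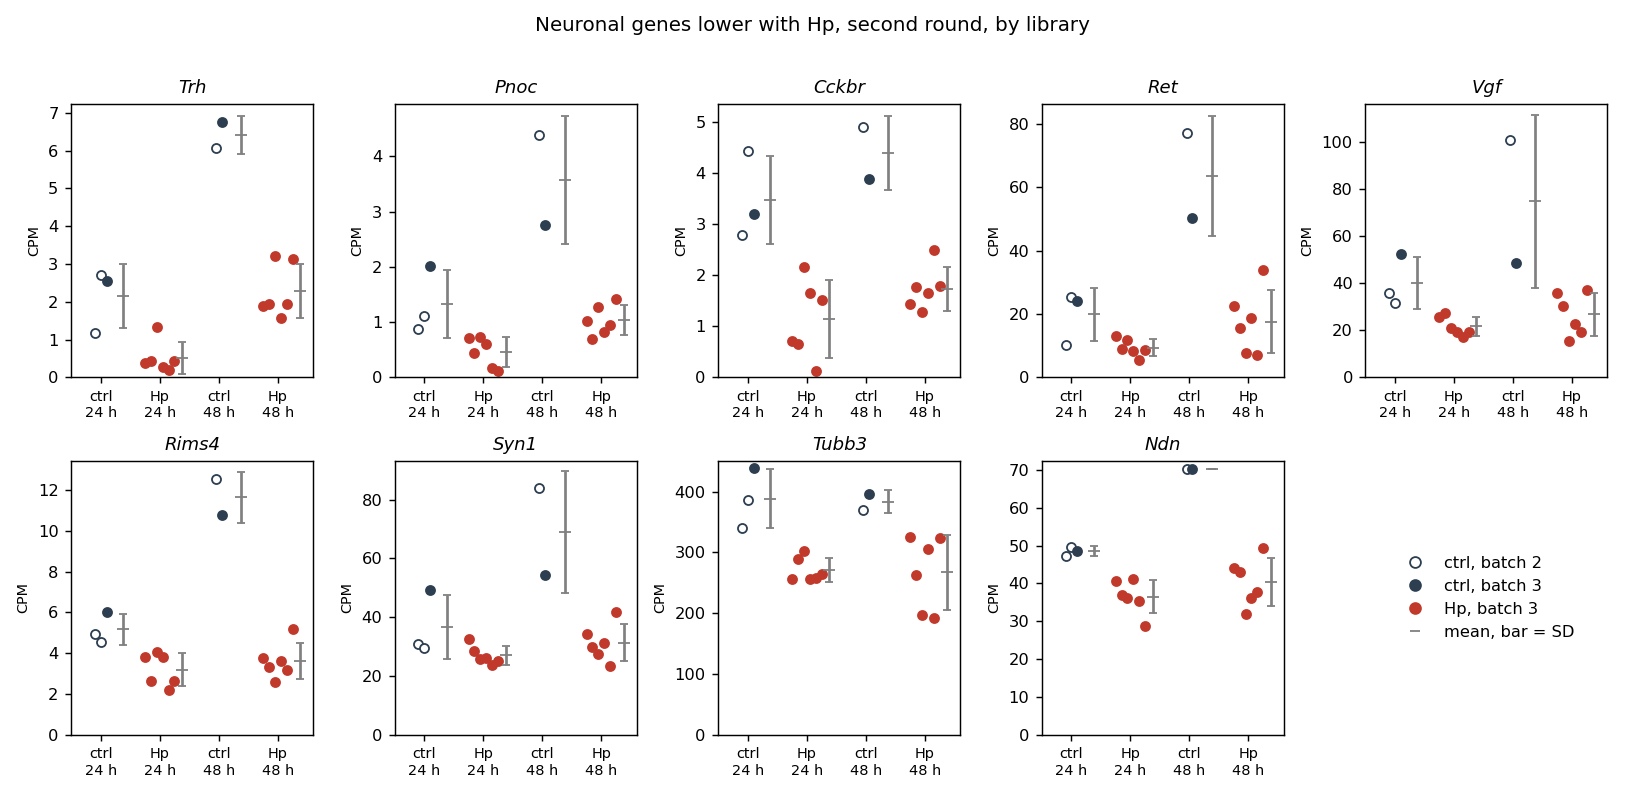
Level in CPM (linear axis from 0) of 9 genes called lower with Hp in each of the 17 libraries, with symbols as in the plot of the higher genes. The 48 h controls stand above the 24 h controls for Trh, Ret and Rims4, and the library Hp 48 h M3 is the last of the 6 points at 48 h.

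The genes that carried these calls can be set beside sequence near their start. RefSeq promoters of GRCm38.p6, from 250 bases before to 50 bases after the start, matched 5 of the 7 higher and 53 of the 71 lower genes, and they were searched on both strands for the core of the antioxidant response element that NRF2 binds (TGACNNNGC) and for the left and right part of RE1, the site of the repressor of neuronal genes REST (TTCAGCACC and GGACAGC). The antioxidant core was in 1 of 5 promoters of higher genes (Prdx1) and in 7 of 53 of lower genes, against 14.4% of the 12024 promoters of all genes tested. The RE1 left part was in 1 of 53 promoters of lower genes (Syn1), against 0.441% of all, and the right part in 5 of 53 (9.43%), against 7.69% of all. No test was made of these shares, which rest on few promoters, and a match is only a run of letters. The 2 promoters are shown because they belong to the higher gene without overlap and to a synaptic gene of the lower set. The capitals mark the antioxidant core, here on the opposite strand, in Prdx1 (chr4:116685349-116685648, plus strand) and the RE1 left part in Syn1 (chrX:20920869-20921168, minus strand).
Prdx1: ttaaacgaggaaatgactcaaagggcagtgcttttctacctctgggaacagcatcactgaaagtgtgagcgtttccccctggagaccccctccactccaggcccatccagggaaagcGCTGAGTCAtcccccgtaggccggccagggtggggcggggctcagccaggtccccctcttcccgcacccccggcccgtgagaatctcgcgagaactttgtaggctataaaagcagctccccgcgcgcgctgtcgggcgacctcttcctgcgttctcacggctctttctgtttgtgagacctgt
Syn1: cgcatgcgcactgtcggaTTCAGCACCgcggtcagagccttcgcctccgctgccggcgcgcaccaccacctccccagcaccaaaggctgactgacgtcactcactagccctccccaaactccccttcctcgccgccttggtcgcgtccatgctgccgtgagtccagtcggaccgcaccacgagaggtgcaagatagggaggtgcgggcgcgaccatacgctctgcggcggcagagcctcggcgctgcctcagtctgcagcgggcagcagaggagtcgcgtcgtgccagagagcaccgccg

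In the wider heme and iron route most genes did not pass. Of 14 genes of the Hp–CD163 axis and heme breakdown, 2 were called higher (Hmox1 and Blvrb) and none lower, with a median log2 fold change of 0.08. The receptor Cd163 itself was low, at 2.12 to 4.87 CPM over the controls and at 1.77 to 5.74 CPM over the Hp libraries, and its change was 0.24 on the log2 scale (standard error 0.17, adjusted p = 0.572). Lrp1, the receptor of heme–hemopexin, had -0.26 (adjusted p = 0.122), the mouse gene Hp itself -0.37 (adjusted p = 0.528) and the heme transporter Slc48a1 0.16 (adjusted p = 0.0915). Of 18 iron handling genes, Slc40a1 was called higher and Pcbp1 lower. With batch as a term 3 were higher, Slc40a1, the transferrin receptor gene Tfrc (0.51, adjusted p = 0.0252) and the iron sensor gene Ireb2 (0.37, adjusted p = 0.0279), and Pcbp1 lower. In the fit without it Tfrc had 0.27 (adjusted p = 0.122) and Ireb2 0.09 (adjusted p = 0.629), and the ferritin genes Fth1 and Ftl1 had 0.11 and 0.21 (adjusted p of 0.549 and 0.364).

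Of 30 NRF2 targets, 2 were called higher (Hmox1 and Prdx1) and none lower. The estimates were small and of one sign, with 29 of 30 above 0 and a median of 0.16, beside 0.00 over all genes. Their summed level was 5640 to 6576 CPM in the 24 h controls against 7263 to 8134 CPM with Hp, and 6516 and 7265 CPM in the 48 h controls against 7754 to 8875 CPM, without overlap at either time. The called genes Hmox1 and Prdx1, at the levels given above, held a large part of this sum. The gap in the sum is therefore mostly that of these genes and does not show a shift over the whole list. Nqo1, a quinone reductase used as the standard readout of NRF2, was at 9.73, 14.6 and 7.47 CPM in the 24 h controls, at 7.20 and 7.07 CPM in the 48 h controls, and at 7.74 to 13.8 CPM in the Hp libraries. For Nqo1 the groups overlapped, and its log2 fold change was 0.28 (standard error 0.14, adjusted p = 0.364). Srxn1, sulfiredoxin, had 0.11 (standard error 0.08, adjusted p = 0.587), Gclm, a subunit of the enzyme of glutathione synthesis, 0.25 (adjusted p = 0.136), and Slc7a11, the cystine transporter, 0.06 (standard error 0.25, adjusted p = 0.948). With batch as a term Gclm was the only NRF2 target that passed, at 0.43 (adjusted p = 0.0442), Nqo1 was at 0.57 (adjusted p = 0.121), Slc7a11 at 0.69 (adjusted p = 0.257), and the median of the list was 0.18.

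Of 19 neuron markers, Tubb3 alone was called (lower), 17 were below 0 and the median was -0.82. It was -0.23 at 24 h and -1.40 at 48 h. The summed level of the list ran from 808.2 to 966.6 CPM in the 24 h controls and from 1069 to 1405 CPM in the 48 h controls. With Hp it ran from 616.4 to 782.9 CPM at 24 h and from 524 to 909.8 CPM at 48 h, without overlap at either time. The called gene Tubb3, at the levels given above, held a large part of this sum. The gap in the sum at 24 h therefore does not show a shift over the whole list. Of 21 neuropeptides, Trh and Pnoc were called lower, 20 were below 0 and the median was -1.21, and the 10 markers tested of thalamus and hypothalamus held no call with a median of -0.78. In bulk tissue fewer cells of a type and less RNA per cell cannot be told apart. Some peptide genes differed by library rather than by group: Pmch, of the lateral hypothalamus, ran from 0.00 to 13.02 CPM over the controls and from 0.00 to 13.8 CPM over the Hp libraries, and Ttr, of the choroid plexus, from 0.17 to 523.5 CPM and from 0.00 to 1619 CPM. The part that the brain region held by each slice took in the neuronal result was not tested.

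No gene was called in 28 of the 35 lists, those of astrocytes, oligodendrocytes, microglia, border-associated macrophages, endothelium and pericytes included. The 12 genes of homeostatic microglia summed to 799.6 and 771.6 CPM in the 24 h controls of batch 2, to 1467 CPM in that of batch 3 and to 1015 to 1589 CPM with Hp at 24 h, and their median log2 fold change was 0.42 at 24 h and -0.29 at 48 h. Border-associated macrophage genes summed to 340, 401.5 and 676.9 CPM in the same 3 controls and to 442.5 to 680.8 CPM with Hp. Hmox1, Blvrb and Cd36, which macrophages and microglia express, had the order of the border-associated macrophage sums in the 24 h controls. At 48 h the control of batch 2 was above that of batch 3 in the sums of microglia (2699 and 2280 CPM) and border-associated macrophages (1100 and 910.7 CPM). For Hmox1, Blvrb and Cd36 it was below. The part of these cells in the result of these genes was not tested. The 24 genes of cholesterol synthesis all had estimates below 0 (median -0.14), and 19 of 20 interferon-stimulated genes had estimates above 0 (median 0.18), with no call in either list. Of 27 NF-kB and cytokine genes tested, 12 were above 0 and 15 below, with a median of -0.04, and none passed. Of 20 targets of ATF4, the factor of the integrated stress response, Cebpb was called lower and the median was -0.02. Proliferation genes (19) had a median of 0.05.

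At 24 h alone no gene passed in edgeR's test (smallest adjusted p 0.24), while 1625 genes had an unadjusted p under 0.05 and DESeq2 called 97. The genes with the smallest p at 24 h were Lrrc75a, Slc40a1, Hmox1, Cyb5r4 and Casp1 on the higher side (log2 fold changes of 0.44, 0.65, 0.65, 0.39 and 0.54) and Klhl2, Trh, Pkp4, Pcdh1 and Irs2 on the lower side (-0.38, -2.097, -0.34, -0.27 and -0.29). At 48 h 55 genes passed (0.344% of those tested), 1 higher and 54 lower, and 21 of them were among the 78. The higher gene was Trim7, a ubiquitin ligase, at 2.16 and 1.32 CPM in the 48 h controls and 3.17 to 4.17 CPM with Hp (log2 fold change 1.02, adjusted p = 0.0384). The 5 that fell most were Asphd1, Pappa2, Clstn3, Rims4 and Slc12a5, the neuronal chloride exporter KCC2, with log2 fold changes of -2.03, -1.80, -1.695, -1.69 and -1.62. The 48 h calls were set against 2 controls of different batches, and with batch as a term none passed (2666 genes under an unadjusted p of 0.05). None passed without ctrl 48 h F2, Hp 48 h F1 or Hp 48 h F2, with 1140 to 1489 genes under 0.05. The count was 1 without Hp 24 h F3 or Hp 48 h F3, 2 without Hp 24 h M3, Hp 48 h M1 or Hp 48 h M2, 27 without ctrl 24 h F4 and 32 without Hp 24 h F2. It was 131 without Hp 24 h M2, 132 without ctrl 48 h M1 and 337 without Hp 48 h M3. At 24 h, 86 genes passed without ctrl 24 h M2 and 1 without Hp 24 h F3.

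The effect at 48 h was not shown to differ from that at 24 h. No gene passed the test of that difference in edgeR (smallest adjusted p 0.886, 841 genes under an unadjusted p of 0.05) or in DESeq2. The 71 lower genes were below 0 at both times, with medians of -0.48 at 24 h and -0.81 at 48 h, and the 7 higher genes were above 0 at both times. These genes were chosen by a fit over the same libraries of both times. The like signs are largely set by that choice and are a description only. Among the smallest p of the difference were those of Ereg, Lca5, Fgfbp3, Adam19 and Trim7 on the higher side and Fam57b, Caln1, Fxyd6 and Rasd2 on the lower, none of which passed.

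The number of calls turned on single libraries and on the handling of batch. No gene passed without ctrl 48 h F2, Hp 24 h M3, Hp 48 h F1, Hp 48 h F2 or Hp 48 h M1, each left out in turn, with 1936 to 2330 genes under an unadjusted p of 0.05. The count was 1 without ctrl 24 h M2, 10 without Hp 48 h F3, 25 without Hp 24 h M2, 32 without Hp 48 h M2 and 46 without Hp 24 h F2. It was 144 without ctrl 24 h F4, 218 without ctrl 24 h M1 and 236 without Hp 48 h M3, the library with the higher neuronal levels. All 78 genes kept their sign in each of these 17 fits, which reuse the libraries that chose the genes. With batch as an added term 258 genes passed (1.62% of those tested, 170 higher and 88 lower), of which 23 were among the 78. In batch 3 alone, with 12 Hp and 2 control libraries, 159 of 16286 passed (0.976%, 101 higher and 58 lower), of which 17 were among the 78. The batch term rests on the 2 controls of batch 3, and without ctrl 24 h M2 or ctrl 48 h M1 it left 0 and 2 calls. DESeq2, the test of the study's methods, called 583 genes (159 higher and 424 lower) and shared 77 of the 78.

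**Figure D3:**
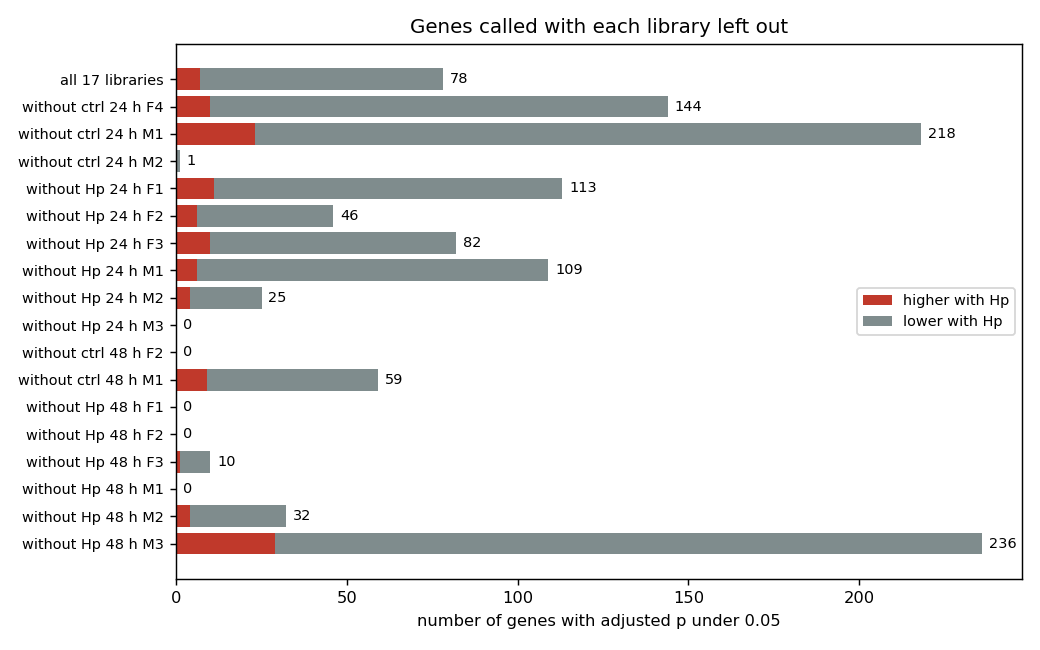
Number of genes with adjusted p under 0.05 (bars from 0, higher and lower stacked) with all 17 libraries and with each library left out in turn. The count runs from 0 to 236 and is 78 with all libraries.

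Without batch as a term, more genes passed in the first round (25 libraries) than in the second (17 libraries). In the first round Hp was compared with 14 controls over 15860 genes, and 3040 passed (19.2%, 1456 higher and 1584 lower). All 11 Hp libraries of that round were of batch 3 and 12 of its 14 controls of batch 2. With batch as a term 143 genes passed there (0.902%), fewer than the 258 (1.62%) of the second round. Over both rounds in one model, the effect of Hp differed between the rounds in 1230 of 16394 genes (7.5%, 503 higher and 727 lower in the second round), and in 1098 with batch as a term. The rounds share no control, and the round and the animals and cultures of each round cannot be told apart.

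NRF2 targets were among the genes that differed. In the first round 28 of 30 were called higher and the list's median was 0.59 (log2), and 17 with batch as a term (median 0.61). In the second round the median was 0.16, and 19 of 30 had a lower effect there than in the first by the test of the difference (21 with batch as a term). On a common scaling of both rounds, Nqo1 was at 9.02 to 13.3 CPM in the 24 h controls of the first round and at 22.6 to 34.5 CPM in its Hp libraries, and at 9.39 to 13.8 CPM and 26.7 to 53.02 CPM at 48 h. In the second round the same scaling gave 7.69 to 15.1 CPM in the 24 h controls and 9.61 to 14.2 CPM with Hp, and 7.28 and 7.35 CPM against 8.07 to 12.9 CPM at 48 h. The 24 h controls of the rounds overlapped for Nqo1, the 48 h controls were lower in the second round, and the Hp libraries did not overlap at either time. The summed level of the list, of which Hmox1 is a large part, showed another pattern at 24 h. On the same scaling the 24 h controls had 4659 to 5841 CPM in the first round and 5872 to 6820 CPM in the second, and the Hp libraries 7898 to 9945 CPM (median 8049) and 7567 to 8339 CPM (median 8061). At 24 h the controls thus stood higher in the second round without overlap, while the Hp libraries overlapped. At 48 h the controls had 4799 to 6910 CPM and 6654 to 7487 CPM, and the Hp libraries 9745 to 13260 CPM and 7967 to 9249 CPM. The effect on Nqo1 was 1.501 in the first round and lower by 1.22 in the second on the log2 scale (standard error 0.17, adjusted p = 2.61e-05). Srxn1 went from 1.40 to 0.11 (adjusted p of the difference 4.24e-07) and Gclm from 0.82 to 0.25 (adjusted p = 0.00118).

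Of the 7 higher genes, all but Hes5 had an estimate above 0 in the first round, and 5 were called higher there. With batch as a term none of the 7 was called in the first round. Slc40a1 had a log2 fold change of 1.40 there, Prdx1 1.12 and Blvrb 0.94, and each differed between rounds (adjusted p of 0.0317, 0.0109 and 0.0269). With batch as a term these p were 0.0447, 0.0204 and 0.0585, so that of Blvrb no longer passed. Hmox1 had 1.19 in the first round, and its difference did not pass (adjusted p = 0.111). Its controls were not at one level: on the common scaling Hmox1 was at 668 to 1683 CPM in the 24 h controls of the first round and at 1577 to 2560 CPM in those of the second. Hes5 had -0.27 in the first round (adjusted p = 0.531), and its effect differed between rounds (adjusted p = 0.0276).

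In the first round the lower genes were called about as often as all genes tested. Of the 71, 70 were tested there, 25 had an estimate below 0, 9 were called lower and 4 higher, and their median log2 fold change was 0.06. Over all 15860 genes tested in that round 19.2% were called, 1584 lower and 1456 higher. With batch as a term none of the 71 was called in the first round. For 46 of the 71 the term for the difference between rounds passed, but these genes were chosen by their second round values, which that term also uses, so the count is a description only and is not to be read against the share over all genes. Vgf had a log2 fold change of 0.40 in the first round (adjusted p = 0.04) and -1.15 in the second (adjusted p of the difference 0.000149). Syn1 had 0.27 and -0.76 (adjusted p = 0.00106), and Trh 0.74 and -1.82 (adjusted p = 0.0291). For Syn1 the Hp libraries of the rounds overlapped at 24 h on the common scaling, at 23.6 to 35.1 CPM in the first round and 24.7 to 33.5 CPM in the second. The controls at 48 h did not, at 19.2 to 40.4 CPM in the first round and at 56.1 and 85.5 CPM in the second. These comparisons are of different times, so they do not place the difference between rounds in the Hp libraries or in the controls. Timp1 lies within Syn1 on the other strand, and reads of both may be mixed. The neuron list had a median of 0.21 in the first round.

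**Figure D4:**
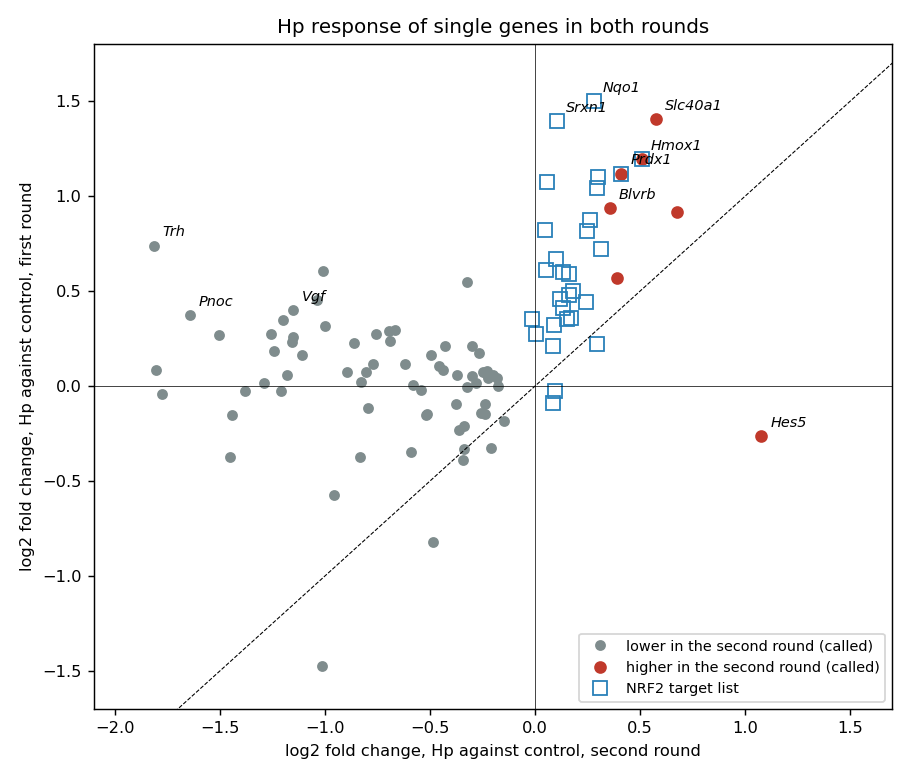
Log2 fold change of Hp against control in the second round (horizontal) and in the first (vertical) for the called genes tested in both rounds and the NRF2 target list, with the line of equal change dashed. Most NRF2 targets lie above the line, and most of the genes called lower in the second round lie within 0.5 of 0 on the vertical axis.

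**Figure D5:**
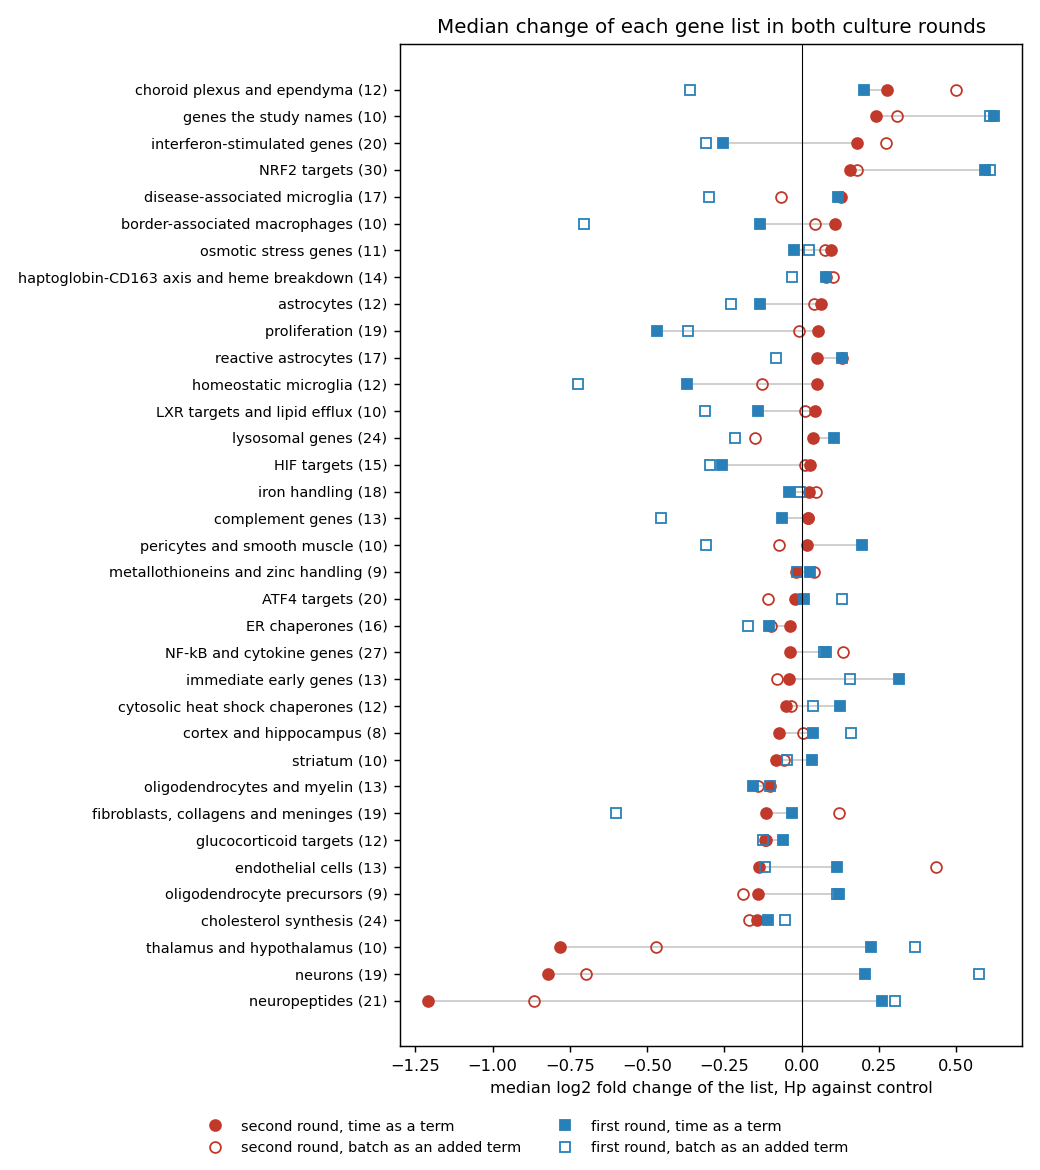
Median log2 fold change of each gene list (number of genes tested in brackets) in the second round (red) and in the first (blue), with open symbols for the fits with batch as a term. The lists of neurons, neuropeptides and thalamus and hypothalamus are below 0 in the second round and above 0 in the first, and the NRF2 list is at 0.16 and 0.59.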

How the data were processed

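Per the submitters' processing notes, reads were aligned to GRCm39 and counted with featureCounts (versions not given in the sources used here). The deposited values are raw counts, unnormalized, with a row for each Ensembl gene, for 25528 genes, of which 25424 had a symbol in the name table. Libraries were grouped by title, treatment tag and library name. Counts were tested in R 4.3.3 by edgeR 4.0.16 (quasi-likelihood F test, time as a term) after filterByExpr (count 10, total count 15) and TMM scaling, and p was adjusted by Benjamini-Hochberg with a threshold of 0.05. A standard error was taken from the fold change (log2) and its F statistic. Levels are CPM. Times were compared over the 4 groups and rounds over 42 libraries with an Hp by round term. Genes named are the 15 largest changes each way among those passing with a mean of at least 1 CPM, 5 each way for each time, and members of the lists. Symbols of clones, Gm numbers and pseudogenes were left out, and where fewer than 10 passed in a direction the 10 of smallest p were taken. Ndn, Peg3, Hap1, Syn1, Nptxr, Map1b, Ina, Mtor and Rps29 were chosen after their values were seen. The members and lists were chosen with earlier results of these data known. Alternatives were DESeq2 1.42.0, RLE scaling, other filters, batch, sex and replicate terms, and leaving out libraries. The batch term without single controls, the removal of both batch 3 controls, batch 3 alone in the first round and the correction for GC content and length were chosen after seeing the data. The fit was tested on simulated counts. 21 libraries with labels in conflict entered no comparison. One gene that the rule names is not reported here.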

Additional observations from a re-analysis of the deposited data

Results flagged for a closer look

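Of 126 groups of 6 Hp libraries looked at (63 genes at each time), 11 had a library whose gap to its neighbour, as a share of the range, was above Dixon's 95% critical value, where about 1 in 20 groups is marked by chance. The library Hp 48 h M3 was the highest for 8 genes of neurons, with 10.37 CPM of Celf6, 5.806 CPM of Dgkk, 74.67 CPM of Disp2, 18.06 CPM of Slc12a5, 86.63 CPM of Hap1, 116.9 CPM of Peg3, 50.87 CPM of Nptxr and 13.11 CPM of Ina. Its summed neuron markers, 909.8 CPM, were the highest of the Hp libraries too, and the part of tissue content in this was not tested. The other 3 were Trh in Hp 24 h F3 (1.342 CPM), Gbe1 in Hp 48 h M1 (20.29 CPM) and Lca5 in Hp 48 h M2 (12.86 CPM).

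The effect of Hp differed between the rounds for 33 of the 63 genes by the Hp by round term in edgeR. Most of these genes were named for their change in the second round, whose values the term also uses, so neither the count nor its split by direction is evidence about the rounds. As differences of log2 fold changes, second minus first round, 3 were higher in the second round, Hes5 1.34, Zfp456 0.63 and Eif2ak2 0.31. The other 30 were lower, Slc40a1 -0.83, Prdx1 -0.71, Blvrb -0.58, Clec4n -0.80, Trh -2.57, Cckbr -1.78, Asphd1 -1.35, Iqsec3 -1.53, Dgkk -1.42, Syt13 -1.54, Rims4 -1.39, Vgf -1.55, Disp2 -1.41, Pcdh1 -0.48 and Irs2 -0.26. The rest were Ephx1 -0.43, Slc12a5 -1.13, Nqo1 -1.22, Srxn1 -1.29, Gclm -0.57, Syn1 -1.03, Hap1 -0.97, Peg3 -0.85, Ndn -0.59, Nptxr -0.52, Mtor -0.22, Ina -1.27, Sez6l -1.61, Map1b -0.66 and Slc7a11 -1.01.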

How the results depend on the processing

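The 78 calls numbered 583 in DESeq2, 258 with batch as a term, 159 in batch 3 alone, 247 with all groups of the second round and batch, 0 without the time term (2031 at an unadjusted p under 0.05), 48 with the sex letter and 46 with the replicate block. RLE scaling, no filter, 10 counts in every library, GC content and length offsets, and leaving out both batch 3 controls gave 70 to 82. GC content and length offsets with batch as a term gave 4, and the batch term without ctrl 24 h M2 or ctrl 48 h M1 gave 0 and 2. Leaving out each library gave 0 to 236. At 24 h (0 calls), DESeq2 gave 97, the batch term 2, and leaving out each library 0 to 86. At 48 h (55 calls), DESeq2 gave 355, the batch term, the replicate block and the 48 h libraries alone 0 each, and leaving out each library 0 to 337. The first round (3040 calls) gave 143 with batch as a term and 72 in batch 3 alone. The cause of these changes was not tested. In each setting of the second round fit over both times, those of the 78 genes that were tested kept their direction. These settings refit the libraries that chose the genes, so the kept directions are a description only. No gene passed the test of the difference between times under any setting.

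The replicate codes were not taken as pairs in the main fit. Deviations of Hp libraries with the same code correlated at -0.16 to 0.22 over 6 pairs, of which 4 were over 0.1, and 1 of 6 correlated best with its own code. Whether a shared code marks the same animal cannot be told from these few correlations. Batch and treatment are separated by 2 controls only, and all calls lay near the threshold.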

Other observations

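One control of the second round entered no comparison, because its title gives 24 h and its library name 48 h. It was of batch 2 with a total count of 49733389. On the scaling of the other libraries it had 32.2 CPM of Slc40a1, 2495 CPM of Hmox1 and 656 CPM of Prdx1, and 3.18 CPM of Trh, 46.2 CPM of Ret, 36.6 CPM of Vgf, 8.33 CPM of Rims4 and 406 CPM of Tubb3.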
